A study of Mus musculus with 9 samples.

Results

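Podocytes collected 14 days after ADR were compared with podocytes of mice given PBS, across all genes that reached at least 1 FPKM (fragments per kilobase of transcript, scaled to the mapped fragments of the library) in at least 3 of the 6 libraries of these groups. That rule kept 9246 of the 23309 gene symbols in the table and left 14063 below it. Both groups held 3 libraries from wildtype mice, 7 to 8 weeks old, of a strain that carries a fluorescent reporter and a podocyte-specific Cre recombinase, and the RNA came from GFP-positive cells. In this strain the Cre is driven by a podocyte promoter and switches a membrane reporter from red to green fluorescence. The switch is permanent, so that a cell stays green even if that promoter later falls silent. The controls carry the same reporter and the same Cre and received PBS in place of ADR, the usual abbreviation of Adriamycin (doxorubicin), which the labels do not spell out. Whether the 3 libraries of each group stem from different mice is not in the labels, so each p-value covers the spread between libraries and no more. A further group of 3 libraries, taken 9 days after ADR, entered the fit of the comparison only to estimate that spread.

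Podocytes are the epithelial cells that cover the outside of the glomerular capillaries. Their interdigitating foot processes are joined by the slit diaphragm, held in shape by actin bundles and anchored to the glomerular basement membrane through integrins and dystroglycan. WT1, the transcription factor named in the title of the series, keeps many genes of this apparatus active in the adult cell, and Adriamycin is widely used in mice to injure podocytes and bring on proteinuria.

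ADR_D14 replicate 1 stood apart from the other libraries. At over 4 times the highest PBS library it held 22 of 25 endothelial, 18 of 28 leukocyte and 24 of 25 proximal tubule markers, and 19 of 24 for the distal nephron. The proximal tubule markers summed to 3840 FPKM there, against 50.9 to 67.9 with PBS and 46.4 and 19.8 in the other day 14 libraries. The distal markers summed to 13100 FPKM against 85.9 to 161, 24.5 and 24.8. The endothelial markers summed to 1378 FPKM against 450 to 555, 436 and 118, the leukocyte markers to 2674 against 6.83 to 67.1, 4.88 and 8.83, and the parietal epithelial markers to 498 against 45.9 to 75.4, 48.3 and 125. Cldn5 made up most of the endothelial sum with PBS, and without it the sums were 1212, 2.46 and 24.5 FPKM in the day 14 libraries and 7.68 to 17.2 FPKM with PBS. Without Aldh1a1 the parietal sums were 497, 16.2 and 22.5 FPKM on day 14 and 29.0 to 45.7 FPKM with PBS. ADR_D9 replicate 3 also held 23 endothelial, 15 leukocyte, 15 distal nephron, 7 mesangial, 5 proximal tubule and 5 parietal epithelial markers past that bound, and 2211 genes passed without both of these libraries. Of the 20 podocyte markers, 17 to 18 reached 1 FPKM in each day 14 library and 18 to 19 in each PBS library, with sums of 3409, 10383 and 12406 FPKM on day 14 and 10774 to 14225 with PBS. Without Cdkn1c, the most abundant of them with PBS, they summed to 2001, 2839 and 1741 FPKM on day 14 and 6021 to 9889 FPKM with PBS, all day 14 libraries lying lower. Estimated relative depth was 0.239, 0.460 and 0.569 on day 14, with PBS replicate 2 set to 1 and the other PBS libraries at 1.09 and 1.08. Of the genes tested, 301, 40 and 36 were listed at 0 in the day 14 libraries and 4 to 11 in the PBS libraries. Y-linked transcripts summed to 53.7 to 59.3 FPKM in the PBS libraries and to 0.126, 70.5 and 0 FPKM in ADR_D14 replicates 1, 2 and 3. Below, FPKM are given per library in the order of replicates 1, 2 and 3, with the log2 change of day 14 against PBS in brackets after them.

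The day 14 podocytes differed from the PBS podocytes in 1779 of the 9246 genes (19.2%) by limma at an adjusted p under 0.05, with a smallest adjusted p of 0.00787. Podocyte structural genes, secreted factors and basement membrane genes were among the 1106 that fell (12%). Nuclear genes of the mitochondria, the ribosome and the proteasome were among the 673 that rose (7.28%). Log2 changes are of FPKM + 1, which understates the change of low genes, and have the median change over the tested genes, −0.15, taken off. The test used the values as deposited, so each p belongs to the change before that median was taken off. Higher genes made up 37.8% of the calls. The split depended on the scaling, being 872 against 816 when libraries were scaled by the median of ratios, 805 against 801 under quantile normalization, 448 against 1710 when columns were set to 1 common total, and 454 against 1672 when that total left out small RNA genes. Of the genes that rose, 629 had a relative log2 change of at least 1 and 103 of at least 2, and of those that fell 718 and 97 did. In all, 1501 genes (16.2%) had every day 14 library above every PBS library and 2227 (24.1%) had every one below. Of the 1779 genes, 1501 also passed without ADR_D14 replicate 1, and of the genes named below Atf4, Col4a5, Plod2, Slc7a11, Stat3, Trp53 and Txnrd1 then did not (adjusted p from 0.0554 to 0.0925 by limma). Without ADR_D14 replicate 1, 716 of the 9246 genes rose and 1239 fell, the background for list counts of that fit. No gene passed without PBS replicate 2 by limma (2325 at an unadjusted p under 0.05), and 322 passed without PBS replicate 3. None passed by limma once Y-linked expression was a term of the model (2377 had an unadjusted p under 0.05). All 1779 then kept their direction, as did 8210 of the 9246 genes tested. The 1779 were chosen on these same libraries and 1775 of them had separate groups, so their kept direction is no independent support.

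**Figure D1:**
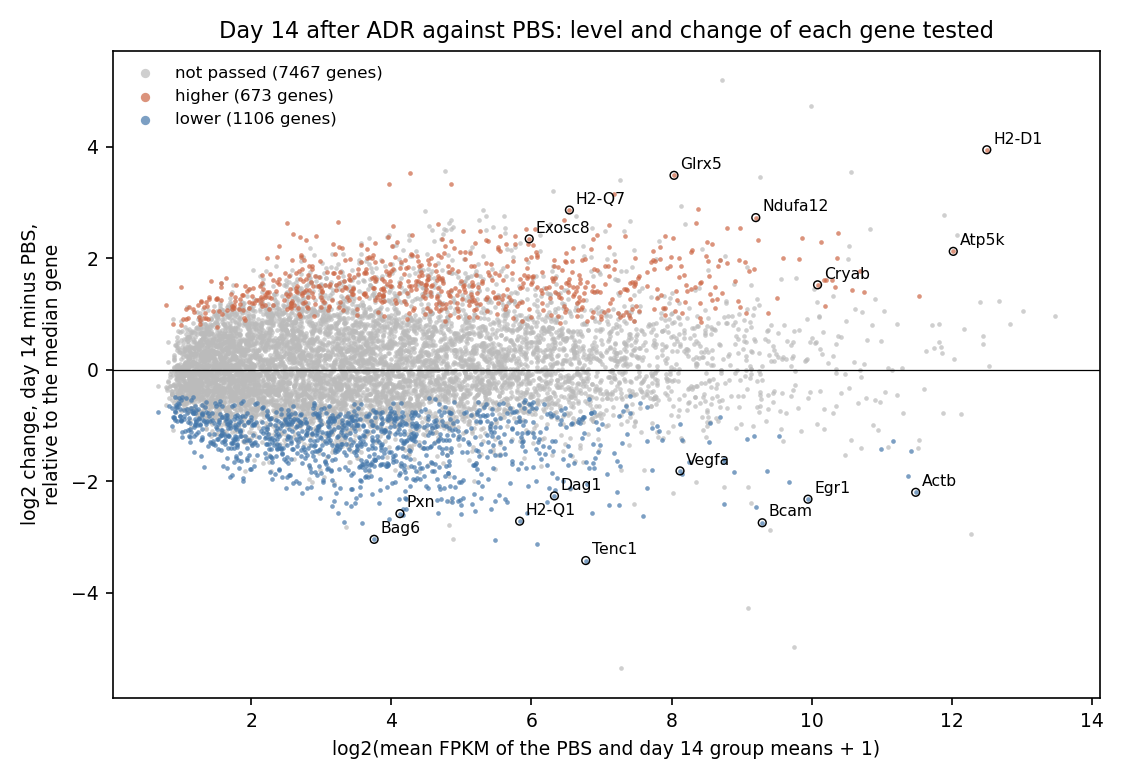
Each point is 1 of the 9246 genes, with log2 of the mean FPKM + 1 over the PBS and day 14 group means on the x axis and the log2 change against PBS, relative to the median gene, on the y axis. Orange points rose (673) and blue points fell (1106) by limma. Grey points did not pass, and circles mark some of the genes described.

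Of the 23 genes of the slit diaphragm and its anchors, 19 were tested, 3 fell (15.8%, against 12% of all genes) and none rose, with a median change of −0.43, and −0.24 without ADR_D14 replicate 1. Kirrel2, a nephrin-like adhesion protein, went from 28.6, 48.3 and 57.4 FPKM to 3.04, 18.6 and 9.48 FPKM (−2.08 ± 0.59 SE, adjusted p = 0.0323 by limma), with ADR_D14 replicate 1 the lowest. Ptpro, a receptor phosphatase of the podocyte surface, went from 64.3, 84.7 and 119 FPKM to 31.4, 35.9 and 19.2 FPKM (−1.45 ± 0.32 SE, adjusted p = 0.0154 by limma). Nphs1, which encodes nephrin itself, did not pass. It was at 39.6, 49.0 and 70.4 FPKM with PBS and 30.2, 44.7 and 33.7 FPKM on day 14 (−0.37 ± 0.34 SE, adjusted p = 0.304 by limma), and ADR_D14 replicate 2 lay within the PBS range. Podxl encodes podocalyxin, the sialoprotein that keeps foot processes apart, and it was at 87.4, 109 and 135 FPKM with PBS and 96.3, 71.5 and 53.3 FPKM on day 14 (−0.45 ± 0.32 SE, adjusted p = 0.208 by limma). Its groups overlapped too, here through ADR_D14 replicate 1. Tjp1, the junction adaptor ZO-1, did not pass although its groups were separate, and it was at 14.1, 22.5 and 18.5 FPKM with PBS and 0.458, 6.95 and 8.65 FPKM on day 14 (−1.83 ± 0.63 SE, adjusted p = 0.0579 by limma). The libraries of day 14 differed most in ADR_D14 replicate 1, where it was nearly at 0, and without that library Tjp1 passed at −0.97 (adjusted p = 0.0245 by limma). In bulk samples such as these, fewer cells of a type and less RNA per cell cannot be told apart.

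Wt1 did not pass the test, and it was at 72.1, 74.3 and 59.9 FPKM with PBS and 12.3, 39.0 and 18.6 FPKM on day 14 (−1.52 ± 0.51 SE, adjusted p = 0.0517 by limma). The groups did not overlap, and ADR_D14 replicate 2 was the highest of the day 14 libraries. Without that library Wt1 passed at −1.97 (adjusted p = 0.0323 by limma), and over the alternatives its adjusted p ranged from 0.0271 to 0.271. Of 21 podocyte transcription factors tested, 4 fell (19.05%, against 12% of all genes) and none rose, at a median of −0.62, and −0.33 without ADR_D14 replicate 1. Nfic and Nfia encode members of the nuclear factor I family. Nfic went from 76.4, 109 and 138 FPKM to 34.7, 36.4 and 22.1 FPKM (−1.60 ± 0.28 SE, adjusted p = 0.00991 by limma). Nfia was far less abundant and went from 3.62, 5.75 and 7.84 FPKM to 1.01, 1.51 and 2.64 FPKM (−1.15 ± 0.33 SE, adjusted p = 0.0277 by limma). Zbtb20, a zinc finger repressor, had tight groups, and it was at 71.9, 71.6 and 81.0 FPKM with PBS and 39.9, 39.5 and 45.8 FPKM on day 14 (−0.68 ± 0.20 SE, adjusted p = 0.0237 by limma). Tcf21, a basic helix-loop-helix factor of podocyte development, did not pass. It was at 670.3, 610.1 and 949.6 FPKM with PBS and 246, 649 and 445 FPKM on day 14 (−0.66 ± 0.45 SE, adjusted p = 0.224 by limma), and ADR_D14 replicate 2 lay within the PBS range. Foxc2, a forkhead factor, also overlapped and was at 11.9, 4.78 and 2.49 FPKM with PBS and 2.31, 4.38 and 1.21 FPKM on day 14 (−0.76 ± 0.50 SE, adjusted p = 0.225 by limma). Lmx1b was at 3.07, 2.64 and 0.729 FPKM with PBS and 0, 0.968 and 0.543 FPKM on day 14. It thus missed the filter of 1 FPKM in 3 of 6 libraries and was not tested.

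Among 26 tested genes described in the literature as WT1 targets in podocytes, 9 fell (34.6%, against 12% of all genes), none rose and the median was −0.97. They include Rhpn1, Lamb2, Npnt, Sema3e, Vegfa, Plce1 and Sulf1. The list's median was −0.70 without ADR_D14 replicate 1 and −0.51 with the term for Y-linked transcripts. Sulf1, a heparan sulfate sulfatase of the matrix, went from 18.8, 27.5 and 34.4 FPKM to 6.62, 5.35 and 5.44 FPKM (−1.85 ± 0.27 SE, adjusted p = 0.00903 by limma). Plce1, a phospholipase C whose loss causes mesangial sclerosis, went from 10.4, 9.86 and 9.22 FPKM to 3.69, 4.39 and 2.45 FPKM (−1.13 ± 0.29 SE, adjusted p = 0.0208 by limma). The 3 day 14 libraries were close together for both. Of the 18 podocyte markers tested, 8 fell (44.4%, against 12% of all genes) and none rose, with a median of −1.06.

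**Figure D2:**
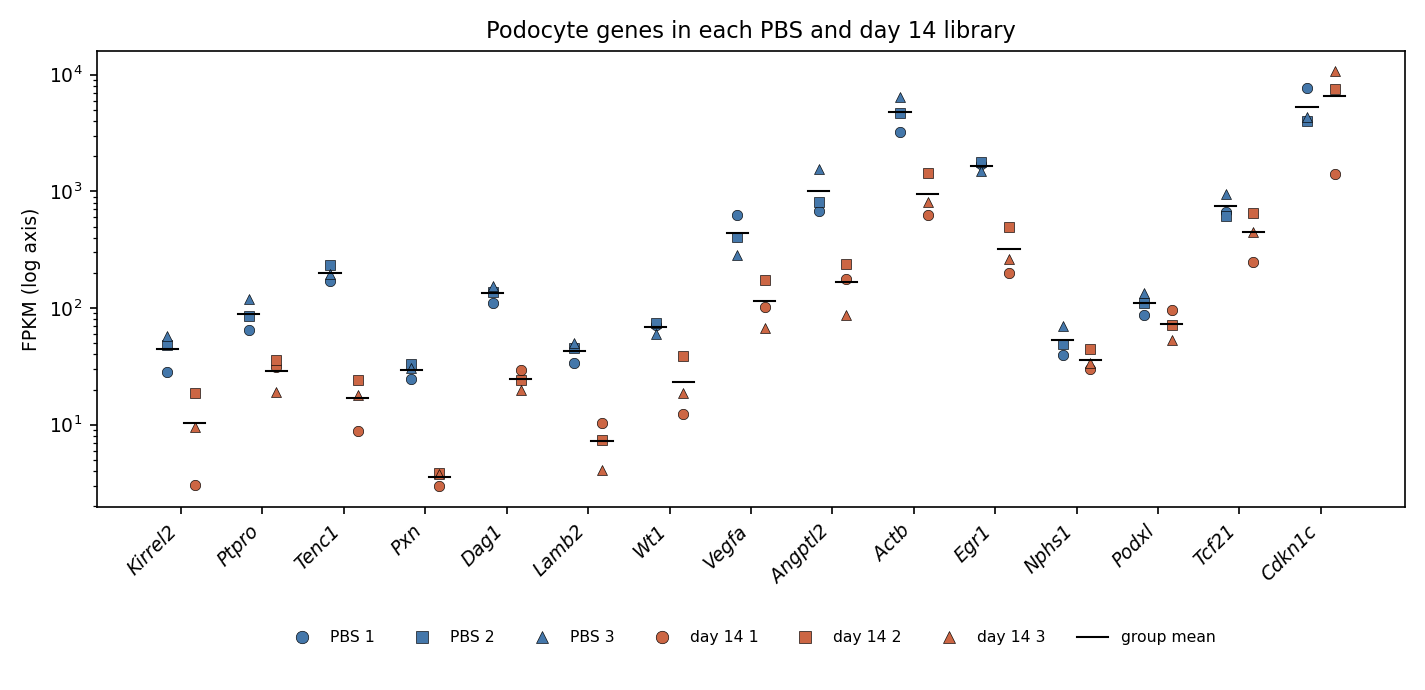
Points give the FPKM of each PBS (blue) and day 14 (orange) library on a log axis for podocyte genes, with a bar at each group mean. The groups are separate for the genes from Kirrel2 to Egr1, and overlap for Nphs1, Podxl, Tcf21 and Cdkn1c.

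Of 33 tested genes of the foot process skeleton and its adhesions, 12 fell (36.4%, against 12% of all genes), none rose, and 27 lay below the median gene. The list's median was −0.79, and −1.14, −0.69 and −0.96 in the 3 day 14 libraries taken singly. Tenc1, which encodes the focal adhesion protein tensin 2, had the largest decrease of all genes that the naming rule covers. It was at 169, 233 and 198 FPKM with PBS and 8.82, 24.3 and 18.0 FPKM on day 14 (−3.42 ± 0.35 SE, adjusted p = 0.00793 by limma). Tns3 encodes its relative tensin 3 and was far less abundant. It was at 9.10, 23.3 and 37.4 FPKM with PBS and 2.32, 4.195 and 3.52 FPKM on day 14 (−2.15 ± 0.45 SE, adjusted p = 0.0142 by limma). Pdpn (podoplanin), a surface glycoprotein linked to the actin skeleton through ezrin, was lowest in ADR_D14 replicate 1. It was at 317, 301 and 351 FPKM with PBS and 14.4, 75.1 and 90.8 FPKM on day 14 (−2.61 ± 0.62 SE, adjusted p = 0.0208 by limma), and the change was −1.80 without that library.

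Regulators of small GTPases and actin binding were among the 12. Rhpn1 (rhophilin 1), a GTPase-binding protein gene and an abundant podocyte transcript, went from 949, 959 and 1223 FPKM to 207, 389 and 226 FPKM (−1.82 ± 0.35 SE, adjusted p = 0.0110 by limma). Arhgdia, an inhibitor of small GTPases, went from 398, 430.5 and 398 FPKM to 102, 203 and 174 FPKM (−1.25 ± 0.28 SE, adjusted p = 0.0146 by limma). Both genes were highest on day 14 in ADR_D14 replicate 2. Myo1e, a class I myosin whose loss causes nephrotic syndrome, went from 94.9, 107 and 146 FPKM to 29.5, 33.8 and 28.7 FPKM (−1.71 ± 0.28 SE, adjusted p = 0.00903 by limma). The scaffold gene Iqgap1 went from 50.1, 53.2 and 44.6 FPKM to 12.9, 14.5 and 5.50 FPKM (−2.01 ± 0.35 SE, adjusted p = 0.00991 by limma). Kank1, Kank2, Coro2b, Vcl (vinculin) and Actn1 (alpha-actinin 1) fell as well, by 1.26, 0.98, 1.72, 1.43 and 1.61 on the log2 scale, and for all 12 the adjusted p by limma was at most 0.0242. Pxn (paxillin), an adaptor of focal adhesions outside that list, had the smallest p of all genes tested. It was at 24.5, 32.9 and 30.4 FPKM with PBS and 2.97, 3.89 and 3.78 FPKM on day 14 (−2.58 ± 0.23 SE, adjusted p = 0.00787 by limma), a narrow range in both groups. Synpo (synaptopodin) marks the actin bundles of the foot process. It was at 52.2, 36.7 and 26.9 FPKM with PBS and 25.05, 20.1 and 8.52 FPKM on day 14 (−0.99 ± 0.40 SE, adjusted p = 0.0747 by limma) and did not pass, although the groups were separate. Without ADR_D14 replicate 1 it passed at −1.28 (adjusted p = 0.0381 by limma).

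The actins themselves fell. Of the 35 tested genes for actin and its polymerization, capping and severing, 29 did not pass, as did 7467 of all 9246 genes. In this list 4 rose (11.4%, against 7.28% of all genes) and 2 fell (5.71%, against 12%). Actb (beta-actin) went from 3236, 4678 and 6423 FPKM to 631, 1427 and 814 FPKM (−2.20 ± 0.41 SE, adjusted p = 0.0109 by limma). Actg1 (gamma-actin), whose coding sequence is nearly the same, went from 2997, 3411 and 3568 FPKM to 1313, 1604 and 898 FPKM (−1.27 ± 0.31 SE, adjusted p = 0.0190 by limma). ADR_D14 replicate 2 was the highest day 14 library for both actins. The list's 4 genes that rose encode subunits of the capping protein and of the Arp2/3 complex, which nucleates branches. Capza2 went from 46.2, 37.2 and 36.6 FPKM to 107, 83.4 and 105 FPKM (1.43 ± 0.21 SE, adjusted p = 0.00991 by limma). Capzb, Arpc2 and Arpc5 rose by 1.48, 1.07 and 1.14, and the list's median was 0.21 (−0.15 after quantile normalization). Microtubule genes were mixed, with 8 lower (21.6%, against 12% of all genes) and 3 higher (8.11%, against 7.28%) of 37 tested. Mapre3, a protein of microtubule plus ends, went from 48.9, 63.9 and 84.9 FPKM to 6.75, 22.4 and 18.2 FPKM (−1.95). Tbca, a folding cofactor of tubulin, went from 53.7, 40.9 and 48.4 FPKM to 260.1, 108 and 99.5 FPKM (1.71). Mapre3 and Tbca had adjusted p between 0.0179 and 0.0231 by limma.

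Basement membrane genes and their receptors had a median of −0.98, and −0.79 without ADR_D14 replicate 1, and 9 of 25 tested members fell (36%, against 12% of all genes) while none rose. Dag1 encodes dystroglycan, the receptor that binds laminin at the sole of the foot process. It was at 110.3, 138 and 155 FPKM with PBS and 29.2, 24.2 and 19.99 FPKM on day 14 (−2.26 ± 0.25 SE, adjusted p = 0.00793 by limma). Bcam, another laminin receptor, went from 805, 1087 and 1311 FPKM to 146, 364 and 51.3 FPKM (−2.74 ± 0.59 SE, adjusted p = 0.0167 by limma). The laminin chain gene Lamb2, whose loss causes congenital nephrotic syndrome in humans, went from 33.9, 45.6 and 50.2 FPKM to 10.3, 7.36 and 4.09 FPKM (−2.33 ± 0.34 SE, adjusted p = 0.00903 by limma). All 3 genes had separate groups. Npnt (nephronectin), a matrix ligand of integrins, went from 564, 689.9 and 904 FPKM to 166, 198 and 51.6 FPKM (−2.40). Itga3, a subunit of the main laminin-binding integrin of podocytes, went from 144, 174 and 208 FPKM to 47.8, 68.3 and 28.0 FPKM (−1.77). The intracellular linker gene Parva went from 99.4, 147 and 183 FPKM to 40.1, 44.2 and 30.2 FPKM (−1.70). For these last 3, as for Bcam and Lamb2, ADR_D14 replicate 3 was the lowest library. Agrn (agrin), Itgb8 and the collagen IV chain gene Col4a5 also fell, by 0.98, 1.19 and 1.38 on the log2 scale. The partner chains of the mature collagen network did not pass. Col4a3 was at 12.7, 21.1 and 30.9 FPKM with PBS and 9.16, 10.6 and 12.7 FPKM on day 14 (−0.71 ± 0.37 SE, adjusted p = 0.135 by limma). Col4a4 was at 66.4, 98.4 and 141 FPKM with PBS and 36.8, 63.1 and 37.6 FPKM on day 14 (−0.96 ± 0.36 SE, adjusted p = 0.0609 by limma). Npnt, Itga3 and Parva had adjusted p between 0.00903 and 0.0126 by limma.

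The 250 bases before the transcription start are shown for Dag1 and Tenc1, adhesion genes with among the smallest p of the genes that fell, and for Atp5k and Ndufa12, mitochondrial genes that rose. They are from RefSeq on build GRCm38.p6, 5′ to 3′ on the gene's strand, at chr9:108263959-108264208 (minus strand) for Dag1, chr15:102102684-102102933 (plus) for Tenc1, named Tns2 there, chr5:108434400-108434649 (minus) for Atp5k and chr10:94198785-94199034 (plus) for Ndufa12. Capitals mark matches on either strand to any of 4 motifs: GCGTGGG (of the WT1 and EGR type), CCGGAAG (ETS type), GCGCATGCG (NRF1 type) and GGGGCGGGG (Sp and KLF type).
Dag1: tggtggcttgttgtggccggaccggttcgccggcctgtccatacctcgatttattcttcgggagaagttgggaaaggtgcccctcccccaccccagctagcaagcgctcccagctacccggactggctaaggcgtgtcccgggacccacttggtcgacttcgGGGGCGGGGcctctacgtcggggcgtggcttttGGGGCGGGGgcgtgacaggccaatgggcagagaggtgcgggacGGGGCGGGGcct
Tenc1: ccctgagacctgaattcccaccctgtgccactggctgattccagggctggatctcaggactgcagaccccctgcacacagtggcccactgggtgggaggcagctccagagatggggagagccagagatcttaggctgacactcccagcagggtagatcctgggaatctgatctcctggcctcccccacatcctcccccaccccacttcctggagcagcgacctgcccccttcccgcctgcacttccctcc
Atp5k: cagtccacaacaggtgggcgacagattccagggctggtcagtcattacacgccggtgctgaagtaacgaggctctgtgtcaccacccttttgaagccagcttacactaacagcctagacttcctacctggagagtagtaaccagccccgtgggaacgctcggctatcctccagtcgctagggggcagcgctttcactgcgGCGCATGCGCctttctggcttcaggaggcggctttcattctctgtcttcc
Ndufa12: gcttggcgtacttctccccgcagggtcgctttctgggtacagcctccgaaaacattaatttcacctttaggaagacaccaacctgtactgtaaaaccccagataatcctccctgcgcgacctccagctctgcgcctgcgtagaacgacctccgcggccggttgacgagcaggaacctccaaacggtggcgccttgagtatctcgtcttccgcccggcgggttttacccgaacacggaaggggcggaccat
The Dag1 window shown, 1 of 2 listed for that gene, has 3 matches of the Sp and KLF type. The Atp5k match is the overlapping pair of both strands of the NRF1 type, and the windows of Tenc1 and Ndufa12 hold none of these letters. Promoters were matched for 7433 of the 9246 genes, 542 of those that rose and 924 of those that fell. A gene with several windows counted as a match if any of them held the letters. GCGTGGG was found for 6.46% of the matched genes that rose and 8.44% of those that fell. It was found for 8.75% of all matched genes tested and 4.94% of all 27025 genes with a listed promoter. CCGGAAG stood in 22.9%, 17.97%, 17.3% and 7.83%, GCGCATGCG in 5.72%, 4.55%, 3.59% and 1.64%, and GGGGCGGGG in 18.1%, 23.05%, 23.01% and 11.8% of the same sets. No test was made of these shares. A match is a description of the letters and does not show that a factor binds there.

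Secreted products of podocytes had 8 of 26 tested genes lower (30.8%, against 12% of all genes), none higher and a median of −0.93. Vegfa is the growth factor by which podocytes maintain the glomerular endothelium, and it was at 632, 405 and 285 FPKM with PBS and 102, 173 and 67.6 FPKM on day 14 (−1.81 ± 0.44 SE, adjusted p = 0.0208 by limma). Angptl2, an angiopoietin-like protein, went from 685, 818 and 1548 FPKM to 176, 241 and 87.7 FPKM (−2.46 ± 0.42 SE, adjusted p = 0.00989 by limma). ADR_D14 replicate 3 was the lowest library for both. The guidance factor genes Sema3e, Sema3b and Sema3g all fell. Sema3e went from 75.5, 82.5 and 82.2 FPKM to 15.8, 32.8 and 22.1 FPKM (−1.63 ± 0.31 SE, adjusted p = 0.0108 by limma). Sema3b went from 61.9, 55.5 and 58.7 FPKM to 6.20, 28.2 and 10.1 FPKM (−2.02). Sema3g went from 10.2, 16.4 and 26.1 FPKM to 5.51, 2.13 and 0.316 FPKM (−2.39). Enpep encodes the aminopeptidase of the podocyte surface that degrades angiotensin II, and it went from 467, 638 and 874 FPKM to 201, 262 and 127 FPKM (−1.60). Sparc, a matricellular protein gene and among the most abundant transcripts, went from 3191, 3885 and 4976 FPKM to 743, 2308 and 1286 FPKM (−1.45). The change of Sparc was −1.05 without ADR_D14 replicate 1. Sparc also belongs to the fibrillar matrix list, in which 7 of 24 tested genes fell (29.2%), none rose and the median was −0.96. Its lower members included cross-linking enzymes of collagen and a protease inhibitor. Loxl1, a lysyl oxidase, went from 13.6, 20.3 and 29.1 FPKM to 1.39, 5.21 and 3.44 FPKM (−2.23). Plod2, a lysyl hydroxylase, went from 96.9, 105 and 116 FPKM to 18.2, 70.6 and 27.1 FPKM (−1.51). Timp3, which inhibits matrix proteases, went from 683, 824 and 974 FPKM to 357, 396 and 237 FPKM (−1.19). Sema3b, Sema3g, Enpep, Sparc, Loxl1, Plod2 and Timp3 had adjusted p between 0.0146 and 0.0463 by limma.

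Genes known from human nephrotic syndrome were tested in 43 of 60 cases, and 14 fell (32.6%, against 12% of all genes) and 2 rose (4.65%, against 7.28%). The 14 include Ptpro, Tenc1, Lamb2, Itga3, Plce1, Myo1e and Arhgdia, described above. Dlc1, a GTPase-activating protein, went from 27.7, 27.7 and 35.3 FPKM to 1.41, 7.16 and 5.21 FPKM (−2.49 ± 0.51 SE, adjusted p = 0.0141 by limma). Nup133, a scaffold nucleoporin, went from 4.33, 6.95 and 6.71 FPKM to 1.87, 1.504 and 1.62 FPKM (−1.22 ± 0.25 SE, adjusted p = 0.0115 by limma). The 2 that rose encode subunits of the KEOPS complex, which modifies transfer RNA. Lage3 went from 20.4, 14.3 and 22.6 FPKM to 105, 57.7 and 99.5 FPKM (2.26 ± 0.32 SE, adjusted p = 0.00903 by limma). Osgep went from 17.04, 14.9 and 15.1 FPKM to 47.4, 33.4 and 38.8 FPKM (1.43 ± 0.21 SE, adjusted p = 0.01004 by limma). For both of these, all day 14 libraries lay above all PBS libraries.

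Complex I of the respiratory chain, the NADH dehydrogenase, had the highest median of the 47 gene group lists. The median was 1.62 over 37 tested nuclear genes, of which 19 rose (51.4%, against 7.28% of all genes), none fell and 35 lay above the median gene. The median was 2.04, 1.14 and 1.26 in ADR_D14 replicates 1, 2 and 3. Replicate 1, which held the tubule markers, was thus the highest, and without it the median was 1.17 and 19 genes passed. Ndufa12, an accessory subunit, went from 179, 122.6 and 154 FPKM to 1635, 452 and 989 FPKM (2.73 ± 0.45 SE, adjusted p = 0.0108 by limma). Ndufv3, of the NADH-binding module, went from 58.4, 40.6 and 58.1 FPKM to 415, 162 and 231 FPKM (2.40 ± 0.37 SE, adjusted p = 0.00993 by limma). Ndufab1, the mitochondrial acyl carrier protein that is also a complex I subunit, went from 91.1, 59.9 and 71.8 FPKM to 709, 220.4 and 278 FPKM (2.40 ± 0.46 SE, adjusted p = 0.0162 by limma). In these 3 genes ADR_D14 replicate 1 was the highest library, and without it their changes were 2.30, 2.03 and 1.89. Ndufv2, a core iron-sulfur subunit, had the smallest p of the list and went from 257, 203 and 191 FPKM to 958, 573 and 797 FPKM (1.96). Ndufs6, an accessory subunit, went from 383, 259 and 348 FPKM to 1595, 999 and 1022 FPKM (2.002). Ndufa1, the most abundant member named here, went from 1174, 832 and 1032 FPKM to 3204, 1909 and 2178 FPKM (1.39). These 3 genes too had all day 14 libraries above all PBS libraries. Ndufv2, Ndufs6 and Ndufa1 had adjusted p between 0.00903 and 0.0249 by limma.

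Complexes II to V had 15 higher (36.6%, against 7.28% of all genes) and 1 lower of 41 tested, with a median of 1.21, and 0.74 without ADR_D14 replicate 1. Atp5k, subunit e of ATP synthase, went from 1998, 1233 and 1757 FPKM to 9315, 4867 and 5785 FPKM (2.12 ± 0.35 SE, adjusted p = 0.0109 by limma). Atpif1, which inhibits the reverse action of ATP synthase, went from 427, 326 and 438 FPKM to 2824, 1239 and 1492 FPKM (2.29 ± 0.35 SE, adjusted p = 0.00989 by limma). Cox4i1, of cytochrome oxidase, went from 355, 259.7 and 268 FPKM to 2771, 792 and 1135 FPKM (2.37 ± 0.42 SE, adjusted p = 0.0133 by limma). All of these were highest in ADR_D14 replicate 1. Uqcr11, of complex III, was nearly equal in the 3 day 14 libraries and went from 2314, 1359.7 and 1887 FPKM to 3951, 4214 and 4079 FPKM (1.32). Complex II was divided. Sdhb, its iron-sulfur subunit, went from 704, 587 and 535 FPKM to 1947, 1269.7 and 1863 FPKM (1.61). Sdha, its flavoprotein and the list's lower member, went from 87.0, 99.8 and 111 FPKM to 33.2, 29.5 and 45.6 FPKM (−1.30 ± 0.23 SE, adjusted p = 0.00989 by limma). Uqcr11 and Sdhb had adjusted p between 0.0120 and 0.0260 by limma.

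**Figure D3:**
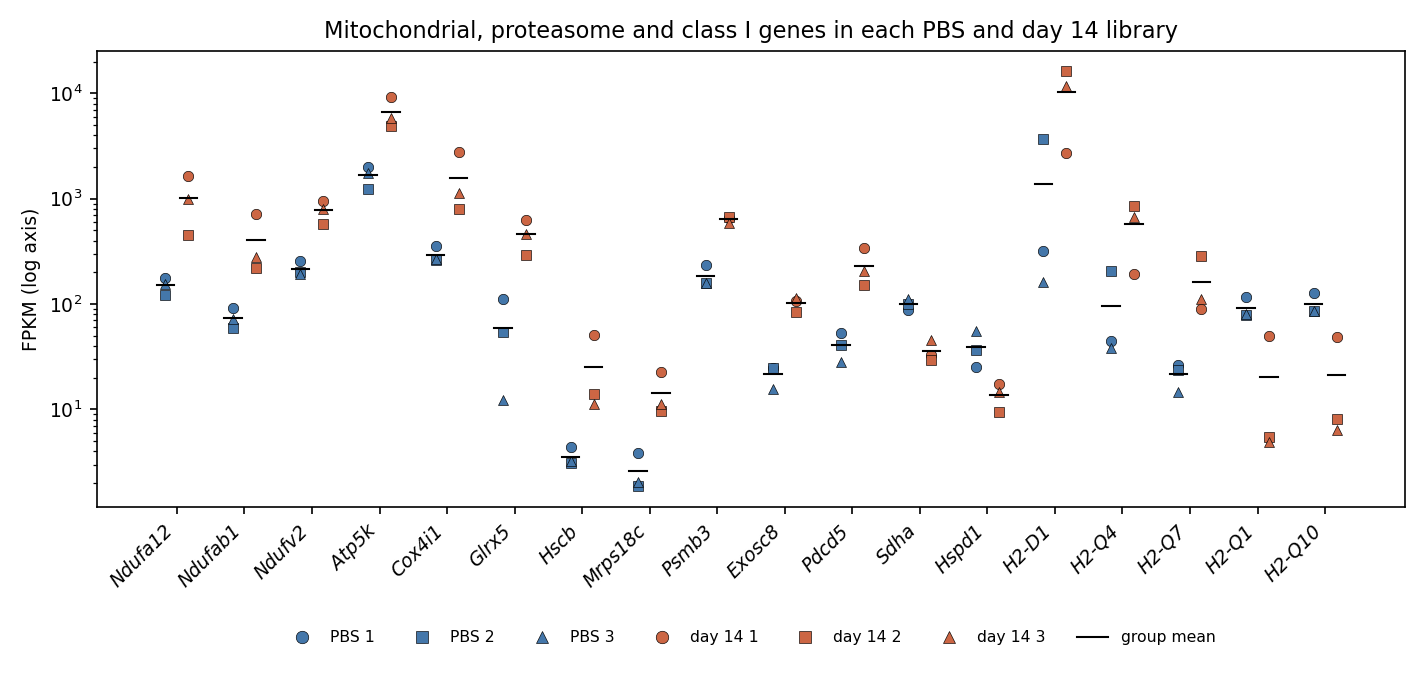
Points give the FPKM of each PBS (blue) and day 14 (orange) library on a log axis for 18 mitochondrial, proteasome, RNA exosome and histocompatibility genes, with a bar at each group mean. Genes up to Pdcd5 lie higher on day 14, Sdha and Hspd1 lie lower, H2-D1 and H2-Q4 overlap between groups, and H2-Q1 and H2-Q10 lie lower.

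Other nuclear genes of the mitochondrion also rose more often than all genes. Of 70 tested genes of the mitochondrial ribosome, 25 rose (35.7%, against 7.28%) and 1 fell, with a median of 0.86 and 0.77 without ADR_D14 replicate 1. Mrps14, of its small subunit, went from 8.79, 6.13 and 6.63 FPKM to 39.5, 24.8 and 25.8 FPKM (2.06 ± 0.28 SE, adjusted p = 0.00903 by limma). Mrpl48, of its large subunit, went from 29.2, 19.9 and 25.7 FPKM to 130.3, 80.9 and 71.4 FPKM (1.995 ± 0.31 SE, adjusted p = 0.0101 by limma). The member that fell, Mrps2, went from 7.59, 10.1 and 12.3 FPKM to 5.202, 4.87 and 4.14 FPKM (−0.77 ± 0.25 SE, adjusted p = 0.0350 by limma). Iron-sulfur cluster assembly had 7 higher (31.8%) and 2 lower of 22 tested. Glrx5 encodes a glutaredoxin that passes nascent clusters on, and it was at 113, 54.4 and 12.4 FPKM with PBS and 635, 295 and 459 FPKM on day 14 (3.49 ± 0.68 SE, adjusted p = 0.0159 by limma). The PBS libraries spread widely for Glrx5, yet all lay below the day 14 libraries. Hscb, a cochaperone of cluster transfer, went from 4.39, 3.13 and 3.22 FPKM to 51.2, 13.99 and 11.2 FPKM (2.38). Nfs1, the cysteine desulfurase at the start of the pathway and one of the 2 that fell, went from 54.6, 63.6 and 66.8 FPKM to 25.9, 26.8 and 39.0 FPKM (−0.86). Of 38 tested genes of import and protein quality, 8 rose (21.1%) and 1 fell. Timm8b, a carrier of the intermembrane space, went from 125, 92.4 and 122 FPKM to 531, 321 and 273 FPKM (1.83). Clpp, a subunit of a matrix protease, went from 109, 86.5 and 80.3 FPKM to 234, 213 and 231 FPKM (1.45). Hspd1, the matrix chaperonin and the member that fell, went from 25.4, 36.3 and 55.1 FPKM to 17.6, 9.38 and 14.5 FPKM (−1.25). Hscb, Nfs1, Timm8b, Clpp and Hspd1 had adjusted p between 0.0106 and 0.0288 by limma.

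Of 28 tested citric acid cycle genes 2 rose (7.14%, against 7.28% of all genes) and 2 fell, and the median was 0.19. Without ADR_D14 replicate 1 it was −0.08, and 4 fell, where 1239 of all 9246 genes did. Sucla2, of succinyl-CoA synthetase, went from 10.8, 8.70 and 9.88 FPKM to 69.0, 22.8 and 50.6 FPKM (2.19 ± 0.40 SE, adjusted p = 0.0143 by limma). Ogdh, of 2-oxoglutarate dehydrogenase, went from 121, 136 and 162 FPKM to 79.0, 49.8 and 67.6 FPKM (−0.95 ± 0.24 SE, adjusted p = 0.0189 by limma). Fatty acid oxidation had 3 higher (8.82%) and 5 lower (14.7%, against 12% of all genes) of 34, with a median of 0.35, and −0.06 without replicate 1. Cpt1a, which carries fatty acids into mitochondria, went from 21.0, 25.6 and 28.7 FPKM to 14.4, 9.02 and 4.34 FPKM (−1.31 ± 0.38 SE, adjusted p = 0.0297 by limma). Hadha, of the trifunctional protein, went from 23.8, 30.1 and 44.6 FPKM to 15.3, 10.95 and 4.53 FPKM (−1.53). The thioesterase gene Acot13 was highest in ADR_D14 replicate 1 and went from 22.97, 15.2 and 20.6 FPKM to 325, 62.6 and 78.1 FPKM (2.69). Glycolysis had 1 of 17 genes lower (5.88%, against 12% of all genes) and none higher, and 4 lower without replicate 1. That gene was Pkm (pyruvate kinase), which went from 789, 799 and 729.6 FPKM to 211, 283 and 431 FPKM (−1.23). Hadha, Acot13 and Pkm had adjusted p between 0.0164 and 0.0251 by limma.

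Of 45 large subunit genes of the cytosolic ribosome, 11 rose (24.4%, against 7.28% of all genes) and 1 fell, with a median of 0.83. The median was 1.24, 0.88 and 0.20 in ADR_D14 replicates 1, 2 and 3, and without replicate 1 it was 0.55 and 8 rose. Of 31 small subunit genes 5 rose (16.1%) and none fell, with a median of 0.76. Both lists hold short transcripts, of 1047 (large) and 1109 bases (small) at the median. Of all tested genes in the shortest of 5 equal length classes, 18.5% rose, which lies above the small subunit's share and below the large subunit's. With a trend on length and GC content removed, as described below, 2 large subunit genes were higher and 1 lower, and 2 small subunit genes were higher and 4 lower. Rpl23 went from 83.4, 64.0 and 61.3 FPKM to 254, 201 and 158 FPKM (1.68 ± 0.26 SE, adjusted p = 0.0104 by limma). Rps19 went from 244, 227 and 307 FPKM to 772, 581 and 752 FPKM (1.59 ± 0.30 SE, adjusted p = 0.0169 by limma). Rpl4, the member that fell, went from 295, 322 and 319 FPKM to 82.2, 153 and 178 FPKM (−1.09 ± 0.32 SE, adjusted p = 0.0304 by limma). Many of these genes have processed copies elsewhere in the genome, and how reads that map to several places were treated is not given in the sources used here, so their levels are uncertain. Translation factors were balanced, with 5 higher (11.9%, against 7.28% of all genes) and 6 lower (14.3%, against 12%) of 42 tested. Eif3c, a subunit of initiation factor 3, went from 103, 122 and 131 FPKM to 32.4, 41.1 and 41.3 FPKM (−1.46). Eif2b3, of the exchange factor for initiation factor 2, went from 10.99, 8.54 and 8.51 FPKM to 57.1, 25.5 and 36.1 FPKM (2.06). Eif3c and Eif2b3 had adjusted p between 0.00903 and 0.0106 by limma.

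The proteasome list had 9 of 42 tested genes higher (21.4%, against 7.28% of all genes) and none lower, with a median of 0.53 and 0.37, 0.51 and 0.68 in the 3 day 14 libraries. Unlike the respiratory chain, it was lowest in ADR_D14 replicate 1. Psmb3, a subunit of the catalytic core, went from 235, 158 and 159 FPKM to 655, 674 and 590.5 FPKM (1.97 ± 0.24 SE, adjusted p = 0.00903 by limma). Psma5, also of the core, went from 112, 92.3 and 79.3 FPKM to 290.3, 266 and 264 FPKM (1.68 ± 0.22 SE, adjusted p = 0.00903 by limma). Both had a narrow range on day 14. Shfm1, a small subunit of the regulatory cap, went from 109.5, 73.3 and 91.9 FPKM to 454, 262 and 260.4 FPKM (1.94 ± 0.28 SE, adjusted p = 0.00955 by limma). Pomp, which assembles the core, went from 161, 102 and 153 FPKM to 264, 353 and 294 FPKM (1.30). RNA polymerase subunits had 7 higher (28%) and 2 lower of 25 tested. Polr2d, a stalk subunit of RNA polymerase II, went from 63.4, 50.2 and 47.2 FPKM to 170.1, 128 and 156 FPKM (1.63). Polr2k, a small subunit shared by all nuclear polymerases, went from 111, 85.7 and 88.6 FPKM to 431, 288 and 197 FPKM (1.76). Exosc8, a ring subunit of the RNA exosome that trims and degrades transcripts, had one of the 10 smallest p and went from 24.6, 24.5 and 15.8 FPKM to 107, 84.2 and 113 FPKM (2.35 ± 0.24 SE, adjusted p = 0.00793 by limma). The spliceosome list was balanced, with 8 higher (12.3%) and 7 lower (10.8%, against 12% of all genes) of 65. Snrnp27, of the tri-snRNP, went from 31.9, 21.3 and 26.1 FPKM to 104, 85.4 and 108 FPKM (2.03). Snrpa1, of the U2 particle, went from 27.3, 22.2 and 18.5 FPKM to 70.8, 65.2 and 92.4 FPKM (1.86). On the lower side stood Prpf19, the ubiquitin ligase of the spliceosome, which went from 41.5, 69.4 and 109.6 FPKM to 6.45, 13.9 and 10.9 FPKM (−2.50). Sf3a2, also of the U2 particle, went from 40.6, 54.0 and 65.8 FPKM to 5.34, 9.15 and 9.99 FPKM (−2.43). Pomp, Polr2d, Polr2k, Snrnp27, Snrpa1, Prpf19 and Sf3a2 had adjusted p between 0.00903 and 0.0175 by limma.

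Of 42 tested chaperone genes 2 rose (4.76%, against 7.28% of all genes) and 5 fell (11.9%, against 12%). Of 39 genes of the endoplasmic reticulum stress response 1 rose (2.56%) and 6 fell (15.4%). Bag6, a cytosolic chaperone that hands misplaced membrane proteins to degradation, went from 9.21, 23.2 and 38.4 FPKM to 1.33, 1.83 and 0.935 FPKM (−3.04 ± 0.45 SE, adjusted p = 0.00903 by limma). Sec61a1, the channel of the translocon, went from 151, 183 and 176 FPKM to 44.7, 56.1 and 44.1 FPKM (−1.65 ± 0.20 SE, adjusted p = 0.00846 by limma). The stress factor gene Atf4 went from 216, 262 and 209 FPKM to 67.7, 148 and 75.9 FPKM (−1.16 ± 0.35 SE, adjusted p = 0.0321 by limma). Small heat shock proteins moved apart. Cryab (alphaB-crystallin), abundant in podocytes, went from 712, 482 and 626 FPKM to 1395, 1482 and 1814 FPKM (1.52). Hspb8, of the same family, went from 287, 307 and 409 FPKM to 78.1, 167 and 143 FPKM (−1.26). Cryab and Hspb8 had adjusted p between 0.0277 and 0.0285 by limma.

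Autophagy genes were divided, with 5 of 35 higher (14.3%, against 7.28% of all genes) and 7 lower (20%, against 12%). Atg3, a conjugation enzyme, went from 19.3, 12.7 and 9.76 FPKM to 75.6, 44.1 and 77.9 FPKM (2.32 ± 0.34 SE, adjusted p = 0.00932 by limma). Map1lc3b encodes the protein that marks autophagosomes, and it went from 180.5, 191 and 116 FPKM to 305, 451 and 518 FPKM (1.53 ± 0.29 SE, adjusted p = 0.0183 by limma). Atg9a, which delivers membrane, went from 14.2, 26.0 and 26.8 FPKM to 5.56, 4.67 and 2.73 FPKM (−1.97 ± 0.34 SE, adjusted p = 0.00988 by limma). The initiating kinase gene Ulk1 went from 6.30, 6.39 and 3.74 FPKM to 2.88, 1.33 and 1.29 FPKM (−1.06). The lysosome list leaves out Smpd1, Sgsh and Man2b2, which are described at the end. It had 4 higher (8.16%) and 6 lower (12.2%) of 49, near the shares of all genes, with subunits of the proton pump on both sides. Atp6v1g1, of its outer part, went from 807, 572 and 627 FPKM to 1955, 1544 and 2018 FPKM (1.61). Atp6v0a1, of its membrane part, went from 29.3, 45.7 and 48.6 FPKM to 5.27, 8.29 and 10.4 FPKM (−2.09). Antioxidant enzymes had 5 higher (10.9%) and 4 lower (8.70%) of 46, and 3 and 2 without ADR_D14 replicate 1, at a median of 0.67 that was 1.34 in ADR_D14 replicate 1 and 0.32 and 0.23 in replicates 2 and 3. Prdx1 (peroxiredoxin 1) went from 159, 117 and 139 FPKM to 724, 319.9 and 280.1 FPKM (1.69). Park7 (DJ-1), a redox sensor, went from 8.996, 7.72 and 6.90 FPKM to 22.9, 22.3 and 19.6 FPKM (1.504). Slc7a11, the cystine transporter that feeds glutathione synthesis, went from 28.3, 28.9 and 20.8 FPKM to 2.81, 11.9 and 4.70 FPKM (−1.88). The thioredoxin reductase gene Txnrd1 went from 52.1, 52.5 and 40.5 FPKM to 8.06, 19.3 and 27.9 FPKM (−1.34). Ulk1, Atp6v1g1, Atp6v0a1, Prdx1, Park7, Slc7a11 and Txnrd1 had adjusted p between 0.00903 and 0.0430 by limma.

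Class I histocompatibility genes changed in opposite directions, with 5 higher (19.2%, against 7.28% of all genes) and 4 lower (15.4%, against 12%) of 26 tested. H2-D1, a classical class I heavy chain, went from 319, 3659 and 164 FPKM to 2714, 16129 and 11793 FPKM (3.95 ± 1.13 SE, adjusted p = 0.0468 by limma). PBS replicate 2 lay above ADR_D14 replicate 1, so the groups overlap. H2-Q7 went from 26.5, 23.5 and 14.5 FPKM to 90.3, 286 and 112 FPKM (2.87 ± 0.47 SE, adjusted p = 0.0108 by limma). H2-Q4 overlapped through the same PBS library and went from 44.3, 206 and 38.4 FPKM to 194, 853 and 665 FPKM (2.89 ± 0.75 SE, adjusted p = 0.0363 by limma). H2-T10 went from 0.886, 7.48 and 0.354 FPKM to 10.3, 41.4 and 49.5 FPKM (3.53). On the lower side, H2-Q1 went from 117, 78.0 and 80.1 FPKM to 49.97, 5.53 and 4.88 FPKM (−2.71 ± 0.78 SE, adjusted p = 0.0351 by limma). H2-T23 went from 159, 112 and 136 FPKM to 71.1, 19.6 and 18.6 FPKM (−1.99). These lower genes were highest on day 14 in ADR_D14 replicate 1. The heavy chain genes are near-identical copies that share reads, so the level of each and the direction of single members are uncertain. B2m, the light chain that every class I molecule needs, was at 794, 629 and 562 FPKM with PBS and 777, 933 and 398 FPKM on day 14 (0.17 ± 0.73 SE, adjusted p = 0.990 by limma) and did not pass, with overlapping groups. It was named after its value was seen. H2-T10 and H2-T23 had adjusted p between 0.0200 and 0.0202 by limma.

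Interferon-response genes had 5 of 39 lower (12.8%, against 12% of all genes) and none higher. Ddx58 (RIG-I), a sensor of viral RNA, went from 2.94, 2.72 and 2.9996 FPKM to 0.583, 1.24 and 0.878 FPKM (−0.89 ± 0.23 SE, adjusted p = 0.0187 by limma). The cytokine-activated factor gene Stat3 went from 71.0, 85.3 and 59.8 FPKM to 19.6, 38.4 and 36.8 FPKM (−1.06 ± 0.34 SE, adjusted p = 0.0398 by limma). Of 24 tested genes of NF-kB signalling and cytokines 2 fell (8.33%, against 12% of all genes) and none rose. Nfkb2, a subunit of the non-canonical pathway, went from 36.9, 33.4 and 30.9 FPKM to 11.03, 13.2 and 9.04 FPKM (−1.38 ± 0.23 SE, adjusted p = 0.00903 by limma). Tnfaip3, a feedback inhibitor of NF-kB, went from 104, 104 and 109 FPKM to 10.9, 30.5 and 36.6 FPKM (−1.99 ± 0.48 SE, adjusted p = 0.0208 by limma). None of 9 tested complement genes and none of 17 parietal epithelial and activation genes passed limma, with 3 and 4 of them at an unadjusted p under 0.05.

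Immediate early genes had 5 lower (14.3%, against 12% of all genes) and none higher of 35 tested, with a median of −0.62, and −0.38 without ADR_D14 replicate 1. Egr1, a zinc finger factor induced within minutes of stimulation, went from 1706, 1771 and 1485 FPKM to 198, 497 and 264 FPKM (−2.32 ± 0.43 SE, adjusted p = 0.0106 by limma). Fosb, a factor of the same early response, went from 67.6, 114 and 114 FPKM to 21.7, 40.2 and 8.27 FPKM (−2.09 ± 0.51 SE, adjusted p = 0.0221 by limma). Socs3, a feedback inhibitor of cytokine signalling, went from 414, 566 and 352 FPKM to 64.8, 211 and 86.5 FPKM (−1.88 ± 0.46 SE, adjusted p = 0.0216 by limma). All 3 were highest on day 14 in ADR_D14 replicate 2. The orphan receptor gene Nr4a1 went from 2689, 2829 and 3410.4 FPKM to 1130.1, 1662 and 526 FPKM (−1.42 ± 0.42 SE, adjusted p = 0.0341 by limma). Fos did not pass, and it was at 921, 789.7 and 754 FPKM with PBS and 1333, 1816 and 549 FPKM on day 14 (0.58 ± 0.41 SE, adjusted p = 0.482 by limma), with overlapping groups. It was named after its values were seen.

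Signalling lists held more genes that fell than rose, as did all genes tested (12% against 7.28%). Of 22 tested Hippo pathway genes 5 fell (22.7%, against 12% of all genes) and none rose. Amotl2, a scaffold that binds YAP, went from 39.7, 84.7 and 109 FPKM to 16.1, 12.0 and 11.05 FPKM (−2.24 ± 0.36 SE, adjusted p = 0.00903 by limma). The kinase gene Lats2 went from 55.0, 67.3 and 66.2 FPKM to 15.1, 23.99 and 21.8 FPKM (−1.45 ± 0.22 SE, adjusted p = 0.00903 by limma). Axl, a receptor kinase and known target of YAP, went from 115, 133 and 125 FPKM to 16.0, 33.2 and 28.6 FPKM (−2.13 ± 0.39 SE, adjusted p = 0.0106 by limma). All 3 genes had separate groups. Of 32 insulin and mTOR genes 8 fell (25%) and none rose. Akt2, a kinase isoform on which podocyte survival has been found to depend, went from 55.7, 58.0 and 54.0 FPKM to 11.4, 20.3 and 13.7 FPKM (−1.71). Of 18 Notch genes 4 fell (22.2%, against 12% of all genes) and 1 rose (5.56%, against 7.28%). Lfng, a glycosyltransferase that tunes Notch receptors, went from 35.3, 61.9 and 82.8 FPKM to 9.86, 12.6 and 8.06 FPKM (−2.24). Rbpj, the DNA-binding partner of Notch, went from 12.7, 17.3 and 17.7 FPKM to 4.18, 6.76 and 5.75 FPKM (−1.22). The gamma-secretase subunit gene Psenen, the 1 that rose, went from 108, 81.4 and 95.04 FPKM to 282, 230.3 and 191 FPKM (1.44). Fgfr1, a fibroblast growth factor receptor outside these lists, went from 49.2, 60.8 and 74.9 FPKM to 5.03, 14.7 and 8.32 FPKM (−2.54). TGF-beta and BMP genes had 2 of 32 lower (6.25%, against 12% of all genes) and none higher. The signal transducer gene Smad3, one of the 2, went from 2.70, 3.92 and 5.30 FPKM to 0.774, 0.650 and 1.15 FPKM (−1.24). Of 12 amino acid transporters 4 fell (33.3%, against 12% of all genes) and none rose. Of 35 endocytosis genes 4 fell (11.4%) and 1 rose (2.86%, against 7.28%). Cltc, the clathrin heavy chain, went from 11.5, 20.8 and 22.8 FPKM to 3.33, 2.19 and 4.44 FPKM (−1.99). Akt2, Lfng, Rbpj, Psenen, Fgfr1, Smad3 and Cltc had adjusted p between 0.00903 and 0.0187 by limma.

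Of 27 tested p53 targets none rose and 2 fell (7.41%, against 12% of all genes), and the median was −1.24, 0.03 and 0.88 in ADR_D14 replicates 1, 2 and 3. Cdkn1a, the cell cycle inhibitor p21, did not pass, and it was at 292, 456 and 570.4 FPKM with PBS and 76.8, 681 and 2159 FPKM on day 14 (0.35 ± 1.42 SE, adjusted p = 0.933 by limma). Replicate 1 lay below and replicates 2 and 3 above all PBS libraries. Ddb2, a DNA damage sensor, went from 32.4, 36.4 and 41.1 FPKM to 10.54, 21.0 and 17.7 FPKM (−1.003 ± 0.27 SE, adjusted p = 0.0236 by limma). Its partner in that sensor, Ddb1, had one of the 10 smallest p and went from 42.8, 64.5 and 71.8 FPKM to 9.30, 6.68 and 11.9 FPKM (−2.41 ± 0.28 SE, adjusted p = 0.00793 by limma). Trp53, the gene of p53 itself, went from 91.5, 74.9 and 73.4 FPKM to 30.2, 53.5 and 19.9 FPKM (−1.14 ± 0.37 SE, adjusted p = 0.0419 by limma). Cdkn1c (p57), which keeps podocytes out of the cell cycle, was among the most abundant transcripts. It was at 7645, 4029 and 4336 FPKM with PBS and 1409, 7544 and 10665 FPKM on day 14 (0.07 ± 0.72 SE, adjusted p = 0.946 by limma) and did not pass, with overlapping groups. Only 18 of 45 cell cycle genes reached the filter, and 1 fell (5.56%, against 12% of all genes). That gene, Ccnd3 (cyclin D3), went from 114, 135 and 163 FPKM to 21.1, 43.3 and 77.9 FPKM (−1.53 ± 0.44 SE, adjusted p = 0.0310 by limma).

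Polycomb and chromatin genes had 3 higher (7.69%, against 7.28% of all genes) and 4 lower (10.3%, against 12%) of 39. Ezh2, the methyltransferase of Polycomb repressive complex 2, was at 0.777, 0.871 and 0.409 FPKM with PBS and 14.5, 1.09 and 2.46 FPKM on day 14 (1.68 ± 0.70 SE, adjusted p = 0.152 by limma) and did not pass. ADR_D14 replicate 1, with its leukocyte and tubule markers, held the most Ezh2, and the part of those cells in this value was not tested. Its partner Eed went from 11.6, 10.1 and 9.497 FPKM to 27.8, 19.0 and 52.5 FPKM (1.62 ± 0.34 SE, adjusted p = 0.0234 by limma). Histone genes had 5 higher (9.62%, against 7.28% of all genes) and 1 lower of 52. H1f0, a linker histone typical of non-dividing cells, went from 38.7, 31.6 and 35.1 FPKM to 303, 67.5 and 251 FPKM (2.42 ± 0.52 SE, adjusted p = 0.0222 by limma). H2afj, a histone variant, went from 74.5, 65.9 and 89.8 FPKM to 225, 229.8 and 863 FPKM (2.36 ± 0.50 SE, adjusted p = 0.0208 by limma). For H2afj, ADR_D14 replicate 3 was the highest library. Cd44, a marker of activated parietal cells, reached 1 FPKM in too few libraries for the filter and was not tested.

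**Figure D4:**
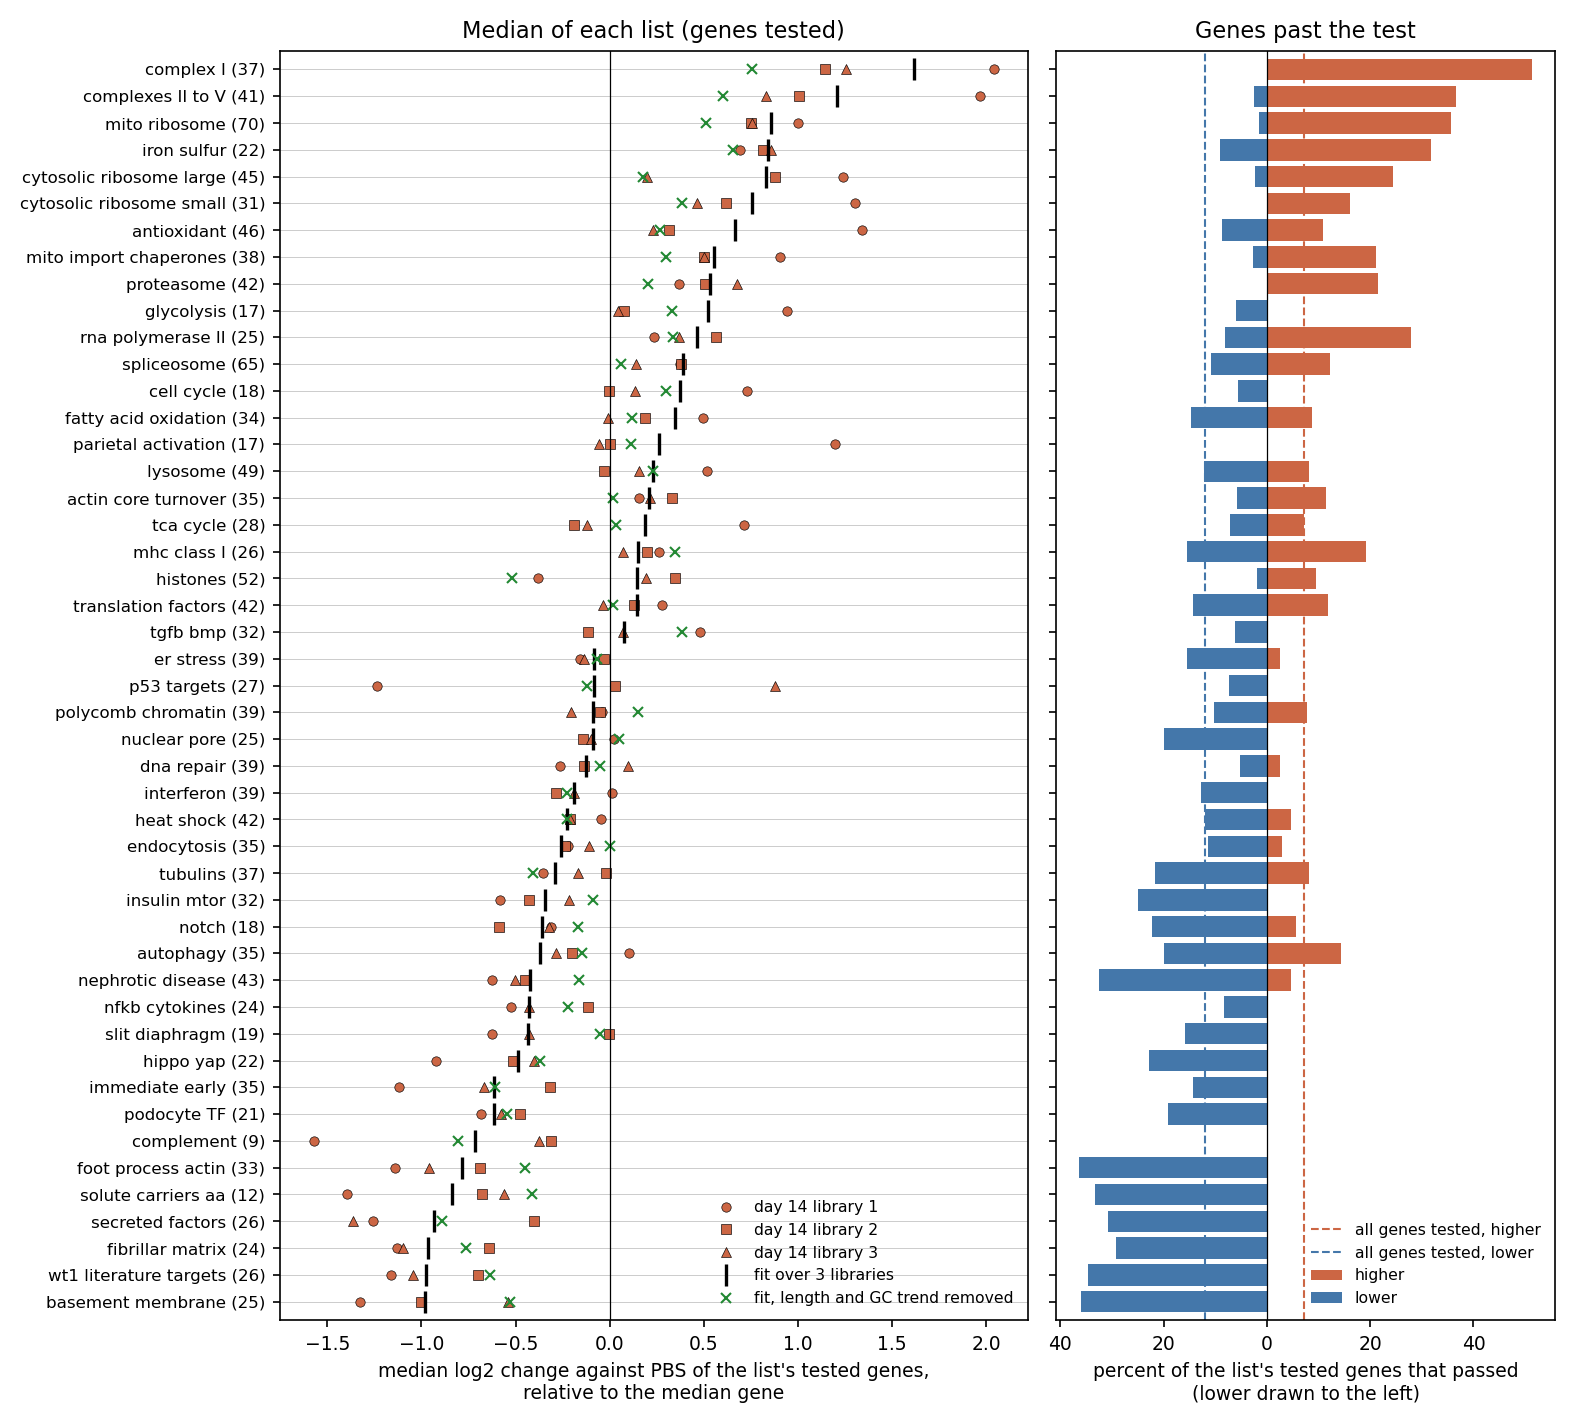
Left, median log2 change against PBS, relative to the median gene, of the tested members of each of 47 gene lists (number tested in brackets), for each day 14 library (symbols), for the fit over the 3 libraries (bars) and for that fit less its trend on length and GC content (crosses). Right, the percent of tested members that rose (orange) and fell (blue), with dashed lines at the 7.28% and 12% of all genes.

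Genes that rose were shorter than genes that fell. The longest annotated transcript had a median of 1786 bases among genes that rose, 4108 among genes that fell and 3163 among all tested genes with a length. In the shortest of 5 equal length classes (up to 1828 bases) 18.5% of genes rose and 2.72% fell, with a median change of 0.61. In the 2 longest classes (from 3647 bases) 3.27% and 2.29% rose, 20.7% and 16.97% fell, and the medians were −0.30 and −0.27. The 3 day 14 libraries had nearly the same slope, from 0.65, 0.65 and 0.50 in the shortest class to −0.27, −0.27 and −0.24 in the longest, whereas the day 9 libraries stayed between −0.18 and 0.10. The median length was 1046 bases in the complex I list and 1923 in the mitochondrial ribosome list, and 5016 bases in the foot process actin list and 4876 in the basement membrane list. Once a trend on length and GC content was taken out, 671 of the 9194 genes with a length passed, 342 above and 329 below. Of these, 573 were among the 1779. The list counts that follow stand against 342 higher and 329 lower of 9194 genes, not against 7.28% and 12%. List medians were then 0.75 for complex I (9 of 37 higher), 0.60 for complexes II to V (7 of 41), 0.51 for the mitochondrial ribosome (12 of 70), 0.21 for the proteasome (5 of 42), −0.45 for foot process actin (4 of 33 lower) and −0.53 for the basement membrane (5 of 25 lower), and −0.05 for the slit diaphragm (1 of 19 lower). The large subunit of the cytosolic ribosome went to 0.18, with 2 of 45 higher and 1 lower, and the small subunit to 0.38, with 2 of 31 higher and 4 lower. Dag1 was at −1.77, Ndufv3 at 2.11 and Atp5k at 1.56 after that removal. The part of transcript length in the changes of any one gene was not tested.

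**Figure D5:**
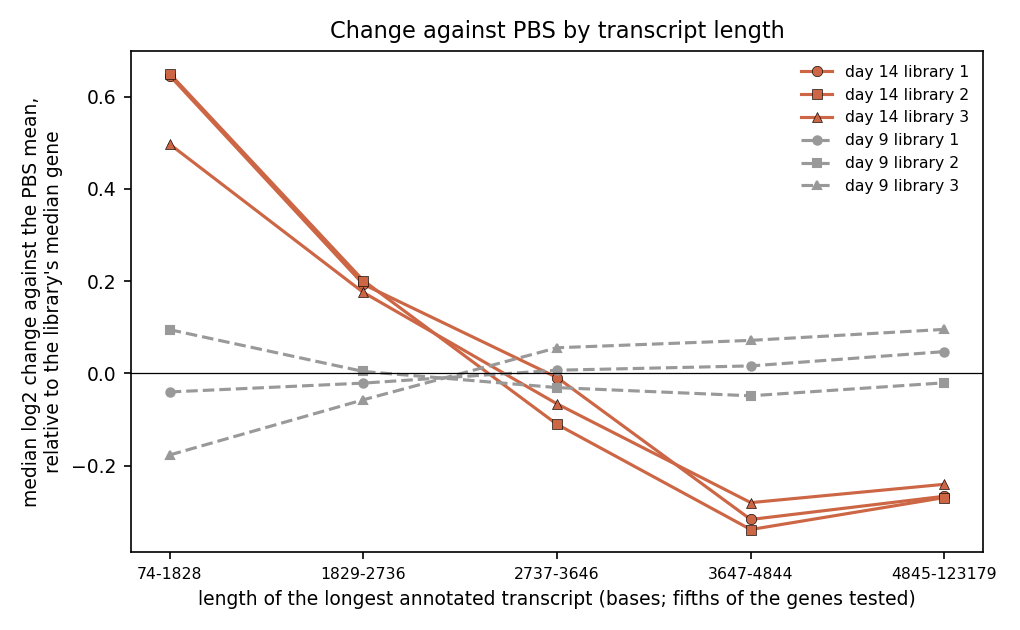
Median log2 change against the PBS mean, relative to each library's median gene, in 5 equal classes of transcript length (x axis, bases of the longest annotated transcript), for the 3 day 14 libraries (orange) and the 3 day 9 libraries (grey). The day 14 lines fall from 0.50 to 0.65 in the shortest class to between −0.27 and −0.24 in the longest.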

How the data were processed

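RNA sequencing of GFP-positive podocytes was deposited as 1 table of FPKM for 9 libraries, 3 each for PBS, ADR day 9 and ADR day 14, grouped by their labels. The authors made these FPKM before deposit. Per the submitters' processing notes, Bowtie 0.12.7, Cufflinks and mm9 were used, in roles not given in the sources used here, and read counts were not used here. A gene was kept when 3 or more of the 6 PBS and day 14 libraries had 1 FPKM or more, and of a symbol on several rows the row with the highest mean was used. Values were taken as log2(FPKM + 1) and fitted with limma 3.58.1 (R 4.3.3, intensity-trend prior) over all 9 libraries, with Benjamini-Hochberg adjustment over all 9246 genes and a threshold of 0.05. The steps were run on simulated data with a smaller spread than that of these libraries. That run does not show how the steps perform at the real spread.

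Since FPKM give no read totals, relative depth was estimated as the most frequent ratio, across genes under 0.3 FPKM in both libraries, to PBS replicate 2. Transcript lengths were taken from the reference annotation by symbol for 99.4% of the genes tested. Genes were named by a rule: up to 20 per direction with the largest change and separate groups, list members that passed or were among the 4 smallest p of 47 gene group lists and 9 marker lists, 20 podocyte genes, the passing genes among the 100 most abundant on day 9, and the 10 smallest p. Results for some genes that the rule names are not reported here. Members, lists and rule were chosen with earlier results of these data known. In all, 30 alternatives were tried, covering the pseudocount, filter, scaling, model terms, thresholds and leaving out each library. Promoters came from RefSeq on GRCm38.p6, matched by symbol, and no genome of the build of the table was used.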

Additional observations from a re-analysis of the deposited data

How the results depend on the processing

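Counts of genes past the test moved with the processing. With no filter beyond a value above 0, 1003 passed (339 higher, 664 lower), and fitting just the 6 PBS and day 14 libraries gave 551 (190 and 361). With a term for Y-linked transcripts 0 passed (0 higher, 0 lower, 2377 at an unadjusted p under 0.05 by limma). The fit of only the libraries that hold them kept ADR_D14 replicate 2 as its only day 14 library, so its count is not given. Removing the trend on length and GC content gave 671 (342 and 329). A common column total gave 448 higher and 1710 lower, and 1672 lower with small RNA genes left out of it, an alternative chosen after seeing the data. An adjusted p under 0.01 gave 202 (70 and 132), one under 0.1 gave 2704 (1015 and 1689), and a relative log2 change of at least 1 gave 718 lower. Leaving out 1 library at a time gave 0 to 1957 in all, 0 to 778 higher and 0 to 1239 lower. The lowest values came without PBS replicate 2, and without PBS replicate 3 322 passed (110 and 212), while without ADR_D9 replicate 2 426 were higher. The cause was not tested.

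Wt1 passed with a filter of 5 FPKM (−1.51), a common column total (−1.56, also without small RNA genes), without ADR_D9 replicate 3 and ADR_D14 replicate 1 together (−1.16), and in 2 of the 9 single omissions, over which its change ranged from −1.97 to −1.16. It was at −0.76 with the Y-linked term and did not pass. With only the libraries that hold those transcripts, ADR_D14 replicate 2 alone on day 14, the change of Wt1 was −0.63. Replicate numbers did not pair the libraries: deviations of same-numbered PBS and day 14 libraries correlated at 0.040, 0.018 and 0.084, and a fit with the number as a replicate block called 1441 genes (577 higher, 864 lower). Of the 151 genes named in the text that passed, 144 passed without ADR_D14 replicate 1 and 141 with the block. With only 6 libraries 89 passed, and 80 with the length and GC trend removed. The block and the fit of 6 libraries cannot alter a change, only its p. All 151 kept their direction without ADR_D14 replicate 1 and with the trend removed. Of all 1779 genes past the test, 1775 had separate groups, so leaving out 1 library could hardly turn a direction. Without ADR_D14 replicate 1 the calls of Col4a5, Atf4, Slc7a11, Txnrd1, Trp53, Stat3 and Plod2 were lost.

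Directions turned for genes that had not passed. Nphs1 was at 0.091 with the Y-linked term and 0.21 with the length trend removed. B2m was at −0.16 after quantile normalization, −0.53 with the Y-linked term, −0.86 with the length trend removed and from −0.095 to 0.53 over single omissions, the lowest without ADR_D14 replicate 2. Cdkn1a was at −0.89 with the Y-linked term and from −0.73 to 1.67 over single omissions, the lowest without ADR_D14 replicate 3 and the highest without replicate 1. Cdkn1c was at −0.066 with no filter, −0.47 after quantile normalization, −0.029 with the length trend removed, and from −0.50 to 0.96 over single omissions, below 0 without PBS replicates 2 or 3 or ADR_D14 replicates 2 or 3. FPKM give no read totals, so depth limits can be stated only as the relative depth of the libraries.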

Other observations

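Beyond the gene groups above, the naming rule brought up genes with very large changes or very small p that stand in no list. Smpd1, acid sphingomyelinase, went from 45.8, 51.2 and 63.9 FPKM to 3.36, 7.74 and 13.0 FPKM (−2.59 ± 0.39 SE, adjusted p = 0.00903 by limma). Sgsh, which removes sulfate from heparan sulfate and had one of the 10 smallest p, went from 14.2, 16.5 and 19.7 FPKM to 2.01, 2.90 and 3.06 FPKM (−2.13 ± 0.24 SE, adjusted p = 0.00793 by limma). Man2b2, a mannosidase, went from 13.9, 28.9 and 49.0 FPKM to 3.69, 2.90 and 2.97 FPKM (−2.60 ± 0.40 SE, adjusted p = 0.00903 by limma). Other genes act on the cytoskeleton or on signalling. Speg, a kinase of the myosin light chain kinase family, went from 83.5, 65.6 and 78.3 FPKM to 1.69, 26.0 and 6.75 FPKM (−3.06). Fam65a, which encodes a protein that binds small GTPases, went from 105, 205 and 295 FPKM to 19.1, 39.5 and 26.7 FPKM (−2.57). Fam129b, also among the 10 smallest p, went from 190.4, 272 and 243 FPKM to 38.7, 51.3 and 28.3 FPKM (−2.42). Card10, a scaffold upstream of NF-kB, went from 22.8, 30.2 and 24.8 FPKM to 3.47, 5.196 and 0.933 FPKM (−2.68). All of these genes had their 3 day 14 libraries below their PBS libraries. Speg, Fam65a, Fam129b and Card10 had adjusted p between 0.00793 and 0.0177 by limma.

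On the higher side, Ethe1, a mitochondrial enzyme that oxidizes sulfide, went from 24.1, 19.3 and 10.3 FPKM to 670.1, 44.7 and 97.0 FPKM (3.16 ± 0.84 SE, adjusted p = 0.0376 by limma). ADR_D14 replicate 1 held most of it, and without that library its change was 2.05 (adjusted p = 0.0239 by limma). Anapc13, a subunit of the anaphase-promoting complex, went from 192, 112 and 161 FPKM to 1295, 612 and 649 FPKM (2.55 ± 0.39 SE, adjusted p = 0.00991 by limma). Pdcd5, a gene linked to programmed cell death, went from 52.9, 40.9 and 28.5 FPKM to 339, 151 and 206 FPKM (2.59 ± 0.36 SE, adjusted p = 0.00903 by limma). Once length and GC content were corrected for, their changes were 1.75 and 1.78. Of the 100 genes with the highest mean on day 9, libraries that enter only the estimate of spread, 5 rose (5%, against 7.28% of all genes) and 10 fell (10%, against 12%).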
